A study of Mus musculus with 9 samples.

Results

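Transcripts best known from neurons and astrocytes were counted in injured tibialis anterior muscle of old mice. The 10 genes described here are 7 neuron genes, namely Snap25, Kif5a, Kif1a, Snhg11, Pcsk1n, Gad1 and Gria2, and 3 astrocyte genes, namely Slc1a2, Gfap and Aldoc. They are 10 of the 54532 genes in the count table. The genes were chosen by their measured counts, since they stood out in the old PBS libraries against the other libraries. Their difference between old PBS and the other groups is therefore given as a description, without a test. Each of the 10 genes had a higher normalised count in all 3 old PBS libraries than in any of the 6 other libraries. Since this order is part of how they were chosen, nothing is read from it; it was found for 3.72% of the 19735 genes with at least 20 counts over the 9 libraries.

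Neurons signal by releasing vesicles at synapses, and they carry cargo along axons on kinesin motors. Astrocytes are glial cells of the brain and spinal cord that take up glutamate from the synapse and fill part of the space around neurons. Skeletal muscle holds the axons of motor and sensory neurons, but the cell bodies of those neurons lie in the spinal cord and in ganglia, and the glia along the axons are Schwann cells. Astrocytes and oligodendrocytes, the glia that make myelin in the brain, are cells of the central nervous system.

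The 9 libraries fall into 3 groups of 3, all from C57/BL6J mice. In the young PBS group, mice of 3 to 4 months were injured in the tibialis anterior by an injection of barium chloride, which destroys muscle fibres, and the muscle then received PBS. The old PBS group, with mice of 24 to 26 months, was injured and injected in the same way. The old rMETRNL group had the same age and injury and received 3 doses of recombinant METRNL, a secreted protein, into the muscle. The old PBS libraries are numbered 2, 3 and 4, and the others 1, 2 and 3. The labels describe a cell suspension of muscle at day 4 after injury, whereas the study's text describes whole muscle at day 8 for its bulk RNA sequencing, and which of these applies to the 9 libraries could not be settled. All groups carry the injury, so no uninjured muscle enters any comparison. Nothing says whether each library came from 1 mouse. The libraries held between 16238700 and 22522560 counts, so a count of 3 was worth 0.133 to 0.185 CPM before TMM scaling. Transcripts of muscle fibres (Acta1, Ckm, Myh4 and 5 others) summed to between 84803 and 133993 CPM in every library, where CPM is the count scaled to library size with TMM factors.

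Snap25 encodes a SNARE protein that fuses synaptic vesicles with the membrane. Its counts in old PBS 2, 3 and 4 were 221, 125 and 406, with none in the 6 libraries of young PBS and old rMETRNL. The old PBS mean was 15.3 ± 10.04 CPM (SD, n = 3). Taken against a floor of 3 counts per library, this is at least 90.1-fold above young PBS and at least 98.4-fold above old rMETRNL. Of the 10 genes, Snap25 alone was at 0 in all 6 other libraries.

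Kif5a and Kif1a encode kinesins, motors that carry cargo along axons. Kif5a had 501, 747 and 429 counts in old PBS 2, 3 and 4. It had 57, 51 and 76 counts in young PBS and 78, 76 and 96 in old rMETRNL. Its old PBS mean of 31.1 ± 3.62 CPM (SD, n = 3) was 8.97-fold that of young PBS and 7.28-fold that of old rMETRNL, the smallest ratios among the 10 genes. Kif5a was thus counted throughout the series, and its 3 old PBS libraries were the closest to each other of the 10 genes, the highest being 1.25 times the lowest in CPM. Kif1a had 229, 99 and 133 counts in old PBS, against 4, 6 and 9 in young PBS and 11, 16 and 10 in old rMETRNL. Its old PBS mean was 9.37 ± 5.61 CPM (SD, n = 3), which was 26.2-fold that of young PBS and 14.4-fold that of old rMETRNL.

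Snhg11, a host gene of small nucleolar RNAs that is expressed in neurons, had 539, 389 and 677 counts in old PBS 2, 3 and 4. It had 20, 24 and 31 counts in young PBS and 52, 21 and 17 in old rMETRNL. Its old PBS mean was the highest of the 10 genes, at 31.9 ± 13.3 CPM (SD, n = 3), 22.6-fold young PBS and 20.2-fold old rMETRNL, but it exceeded that of Kif5a by less than its SD. Without old rMETRNL 1 the ratio to old rMETRNL was 32.7. Pcsk1n encodes proSAAS, an inhibitor of the prohormone convertase of dense core granules. It had 70, 77 and 119 counts in old PBS, against 0, 3 and 0 in young PBS and 1, 2 and 2 in old rMETRNL. The ratio to young PBS was 93.5, with a 95% counting interval from 29.7 to 428 because young PBS held only 3 counts.

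Gad1 encodes the enzyme that makes the transmitter GABA, and Gria2 a subunit of the AMPA receptor for glutamate. Gad1 had 15, 5 and 82 counts in old PBS 2, 3 and 4, against 0, 2 and 0 in young PBS and 0 in each old rMETRNL library. Its old PBS mean of 2.13 ± 2.65 CPM (SD, n = 3) had an SD above the mean, and old PBS 4 was 23.6 times old PBS 3. In old PBS 3 the level of Gad1, 0.218 CPM, was little above the 0.111 CPM of young PBS 2. Gria2 had 79, 32 and 65 counts in old PBS, against 9, 1 and 2 in young PBS and 0, 0 and 7 in old rMETRNL. Its old PBS mean of 3.60 ± 2.004 CPM (SD, n = 3) was 15.7-fold that of young PBS and 34.1-fold that of old rMETRNL. These ratios rest on few counts: all 7 counts of old rMETRNL are in old rMETRNL 3, and 3 remain in young PBS without young PBS 1.

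Among the astrocyte genes, Slc1a2 encodes the transporter GLT-1, which clears glutamate from the synapse. Its counts in old PBS 2, 3 and 4 were 458, 484 and 283, against 1, 10 and 6 in young PBS and 9, 1 and 1 in old rMETRNL. Its old PBS mean of 23.3 ± 6.76 CPM (SD, n = 3) was 73.4-fold that of young PBS, or 117-fold without young PBS 2. Gfap, an intermediate filament protein best known from astrocytes, had 145, 90 and 196 counts in old PBS, against 3, 7 and 3 in young PBS and 2, 0 and 3 in old rMETRNL. The old PBS mean of Gfap was 8.67 ± 4.30 CPM (SD, n = 3), 35.6-fold that of young PBS. Aldoc, an aldolase of glycolysis that is abundant in astrocytes and in some Purkinje cells, had 164, 237 and 350 counts in old PBS. It had 13, 12 and 15 counts in young PBS and 6, 4 and 10 in old rMETRNL, and its old PBS mean was 14.5 ± 6.54 CPM (SD, n = 3). In bulk RNA, more cells of a type and more RNA per cell cannot be told apart. The tissue that these transcripts came from was not tested.

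**Figure D1:**
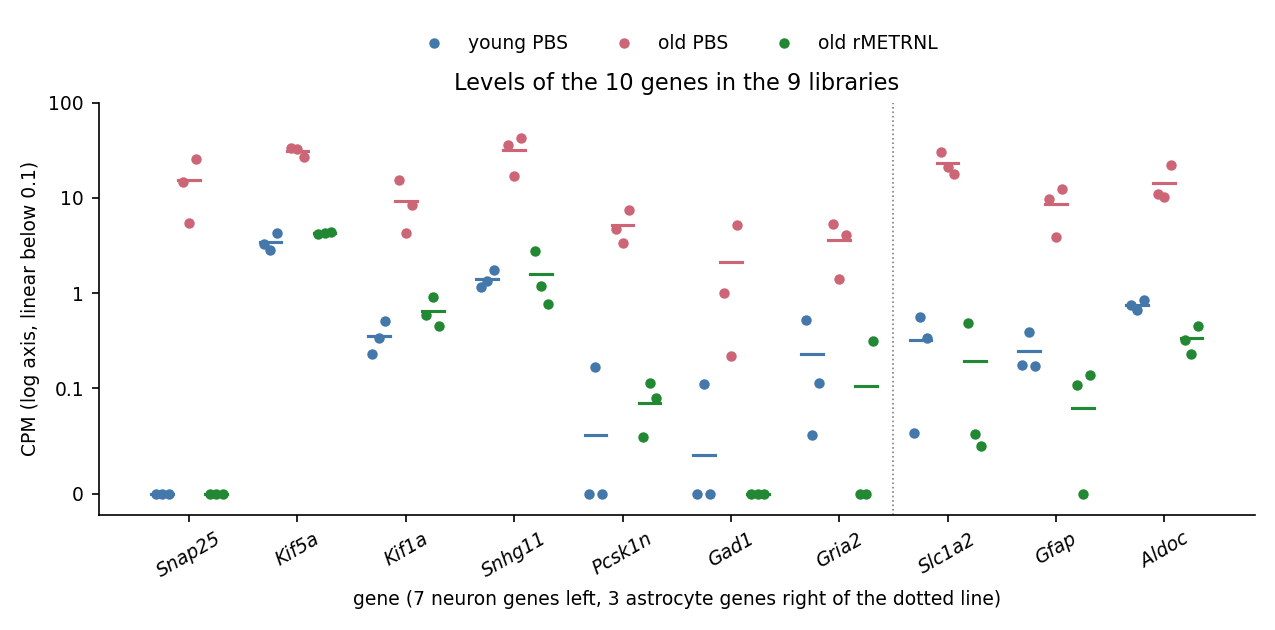
CPM (vertical axis, logarithmic above 0.1 and linear below) of the 10 genes in the 9 libraries. Points are libraries and bars the means of 3; the 3 old PBS points of each gene lie above all 6 others, narrowly so for Gad1, whose lowest old PBS library is at 0.218 CPM.

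Per kilobase of exon, the scale on which genes can be compared with each other, Kif5a and Aldoc led in old PBS with mean RPKM values of 4.45 and 4.43. Snhg11 followed at 3.75 RPKM, Pcsk1n at 2.36, Snap25 at 2.25, Gfap at 2.06 and Slc1a2 at 1.77. Kif1a was at 1.004, Gad1 at 0.279 and Gria2 at 0.232 RPKM. Slc1a2 and Gria2, whose exons add up to 13133 and 15548 bases, thus ranked lower per length than by counts.

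The 10 genes together held 2421, 2285 and 2740 counts in old PBS 2, 3 and 4, which is 0.0149%, 0.0116% and 0.0142% of those libraries. They held between 107 and 159 counts in the 6 other libraries. The neuron genes summed to 111, 64.4 and 120 CPM in old PBS 2, 3 and 4, and the astrocyte genes to 51.6, 35.4 and 52.1 CPM. Old PBS 3 was therefore lowest for both classes. By gene, old PBS 3 was the lowest of the 3 for 8 of the 10 genes, the exceptions being Kif5a and Slc1a2, for which old PBS 4 was lowest. Old PBS 4 was highest for 6 genes and old PBS 2 for the other 4.

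The astrocyte genes made up 31.7%, 35.5% and 30.3% of the 10 genes' counts in old PBS 2, 3 and 4 (Wilson 95% intervals 29.9 to 33.6, 33.6 to 37.5 and 28.6 to 32.0), a mean of 32.5% ± 2.71 (SD, n = 3). These and the following intervals cover counting error only. In young PBS this share ran from 15.9% to 25%, and in old rMETRNL from 4.17% to 10.7%, on between 107 and 159 counts per library. The share in each old PBS library was above that in all 6 others. Since the genes were chosen by these counts, nothing is read from this order. The Wilson interval of young PBS 2, whose share was 25%, reached 33.6% and overlapped that of each old PBS library. Within old PBS, the share in old PBS 3 exceeded that in old PBS 4 by more than counting error.

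Within each class the proportions were not fixed. Kif5a made up 30.3% (28.1 to 32.5), 50.7% (48.1 to 53.2) and 22.4% (20.6 to 24.4) of the neuron genes' counts in old PBS 2, 3 and 4. Snap25 made up 13.4% (11.8 to 15.1), 8.48% (7.16 to 10.01) and 21.2% (19.5 to 23.1). The intervals of the 3 libraries do not overlap for either gene, and the library highest in Kif5a was lowest in Snap25. Gad1 made up 0.339% in old PBS 3 and 0.907% in old PBS 2, against 4.29% (3.47 to 5.30) in old PBS 4. Kif1a was higher in old PBS 2, at 13.8% (12.3 to 15.6), than in old PBS 3 and 4, at 6.72% and 6.96%. Snhg11 varied less, at 32.6%, 26.4% and 35.4%, and Pcsk1n stayed between 4.23% and 6.23% with overlapping intervals.

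Among the astrocyte genes, Slc1a2 made up 59.7% of the counts in both old PBS 2 (56.2 to 63.1) and old PBS 3 (56.3 to 63.0), but 34.1% (31.0 to 37.4) in old PBS 4. Aldoc took the larger part in old PBS 4, with 42.2% (38.9 to 45.6) against 21.4% and 29.2% in old PBS 2 and 3. Gfap made up 18.9%, 11.1% and 23.6%. Old PBS 4 thus differed from the other two in both classes, with more Gad1 and Aldoc and less Slc1a2 in proportion, by more than counting error.

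**Figure D2:**
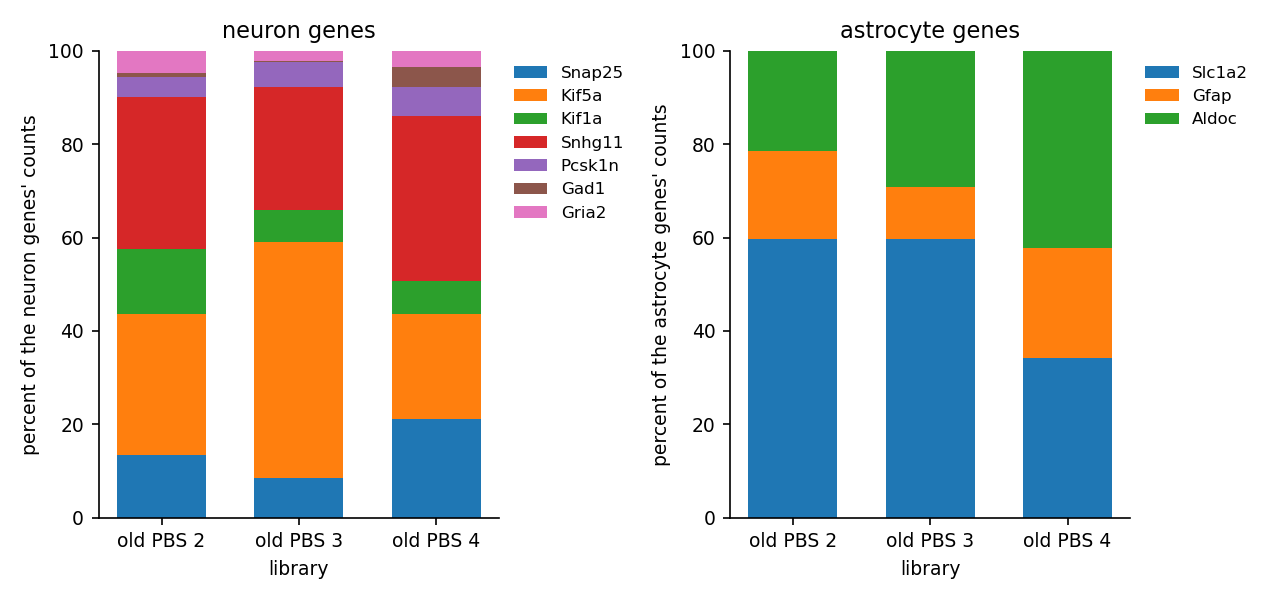
Each gene's share of its class's counts (vertical axis, percent) in old PBS 2, 3 and 4, as stacked bars for the 7 neuron genes (left) and the 3 astrocyte genes (right). Kif5a makes up 50.7% of the neuron counts in old PBS 3, and Slc1a2 makes up 59.7% of the astrocyte counts in old PBS 2 and 3 but 34.1% in old PBS 4.

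The remaining comparison, old rMETRNL against young PBS, does not involve the libraries that chose the genes. With edgeR (quasi-likelihood test, Benjamini-Hochberg), 0 of 15396 genes passed an adjusted p of 0.05 (0.0%), with 371 at an unadjusted p under 0.05, and DESeq2 also called 0. Only 3 of the 10 genes were high enough for this test. Kif5a had a log2 fold change of 0.30 ± 0.23 (SE; adjusted p = 0.9996, edgeR), Snhg11 one of 0.15 ± 0.46 (adjusted p = 0.9996, edgeR) and Aldoc one of -1.14 ± 0.48 (adjusted p = 0.9996, edgeR). Of the 7 genes with at least 10 counts over these 6 libraries, Gfap and Aldoc had all 3 old rMETRNL libraries below all 3 young PBS libraries, and the groups overlapped for the other 5. Over all genes with as many counts this order was found for 3.34%. For Gfap it rests on 13 counts against 5. Snap25, Pcsk1n and Gad1 had 0, 8 and 2 counts over the 6 libraries, too few to compare.

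The 10 genes lie on 6 chromosomes in the GENCODE annotation of GRCm38, and coordinates were taken from it because the labels name the older mm9 and the count table holds none. Snap25 lies at chr2:136713453-136782428, Kif5a at chr10:127225696-127263348, Kif1a at chr1:93015464-93101951, Snhg11 at chr2:158375638-158386145 and Pcsk1n at chrX:7919822-7924410. Gad1 lies at chr2:70553072-70602014, Gria2 at chr3:80681450-80802835, Slc1a2 at chr2:102658659-102790784, Gfap at chr11:102887336-102900912 and Aldoc at chr11:78322968-78327781. Of the 8 annotated genes that overlap a gene of the 10, Gm26668, on the strand opposite Gfap, had 48 counts over the 9 libraries and the others at most 3. Without a stated strand setting, reads of Gfap and Gm26668 cannot be told apart where they overlap.

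Many neuronal genes carry the RE1 site bound by the repressor REST, which keeps them silent in other cell types. Promoter windows of 300 bases from RefSeq (GRCm38.p6) were listed for the 8 genes other than Snap25 and Kif5a, in 10 windows. They were searched on both strands for the letters TTCAGCACC and GGACAGC, the RE1 site's left and right parts, which do not overlap each other. TTCAGCACC was found in 0 of these 10 windows and in 0.371% of all 32851 windows. GGACAGC was found in 2 of the 10 and in 6.56% of all. The windows with a match are shown because they belong to genes of both classes that were high in the same libraries, the glutamate transporter and the glutamate receptor, with the matched letters in capitals. Slc1a2 has it at position -93 from the start site of its window, chr2:102706188-102706487 (+). This window lies inside the gene, whose annotated start is at 102658659, so it is an internal start site. The windows listed for Gad1 and Gfap, without a match, also lie inside their genes. Gria2 has it at position -171, in chr3:80802786-80803085 (-), on the strand opposite to the one printed, so that it reads GCTGTCC.
Slc1a2: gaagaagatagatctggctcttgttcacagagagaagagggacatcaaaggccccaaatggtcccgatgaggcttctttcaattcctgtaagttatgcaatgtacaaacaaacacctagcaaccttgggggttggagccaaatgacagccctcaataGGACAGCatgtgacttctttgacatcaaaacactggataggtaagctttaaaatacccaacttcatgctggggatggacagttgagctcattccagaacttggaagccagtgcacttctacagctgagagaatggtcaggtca
Gria2: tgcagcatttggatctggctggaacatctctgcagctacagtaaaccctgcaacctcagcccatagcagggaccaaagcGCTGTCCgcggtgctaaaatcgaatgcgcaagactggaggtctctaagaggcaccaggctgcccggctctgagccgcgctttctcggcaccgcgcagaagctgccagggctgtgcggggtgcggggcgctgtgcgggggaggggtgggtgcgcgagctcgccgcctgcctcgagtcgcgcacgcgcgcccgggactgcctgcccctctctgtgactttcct
A match is a description of the letters and no measure of binding.

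Part of the further neuron genes showed the same order of libraries as the 10 genes. Lists of neuron genes, 6 in all, with 93 genes that are not among the 10, were compared library by library. Of the 87 genes with at least 20 counts over the 9 libraries, 44 had all 3 old PBS libraries above the 6 others and 2 had them below. Over all such genes, 3.72% had them above. This filter lets in genes such as Nefl that were counted in old PBS alone. With at least 20 counts required over the 6 other libraries instead, a filter added after the values were seen, 22 of 58 genes (37.9%) had all old PBS libraries above and 2 below, against 2.5% above over all 18220 such genes. These lists were written with earlier results of these libraries known, so the counts describe the libraries and are not independent evidence.

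By edgeR's quasi-likelihood test, old PBS against young PBS called 10 of 15560 genes higher (0.0643%) and none lower, and old rMETRNL against old PBS called 17 of 15682 lower (0.108%) and none higher. The first count was 2, 2, 3 and 2 without young PBS 1, 2 or 3 or old PBS 2, and 401 without old PBS 3. The second was 4, 1560 and 6 without old PBS 2, 3 or 4 and 4, 3 and 3 without old rMETRNL 1, 2 or 3. None of the 69 further neuron genes tested was called in either comparison, with 47 and 42 at an unadjusted p under 0.05. DESeq2 called 30 of 87 higher in old PBS than in young PBS and 0 lower, where it called 1.27% of all genes higher. In old rMETRNL against old PBS, which shares the old PBS libraries, DESeq2 called 33 of 88 lower and 0 higher, where it called 1.56% of all genes lower. Both DESeq2 counts include genes tested through old PBS alone, such as Gad2, with 33, 8 and 25 counts there and 0 elsewhere. DESeq2 calls were not counted without such genes, so these counts are a description. The median log2 fold change of the 69 genes was 1.26 in old PBS against young PBS, beside 0.01 for all genes tested, and -1.09 in old rMETRNL against old PBS, beside -0.01. Some of the 69 passed the filter through old PBS alone. Over the 48 genes that also passed it without old PBS, in old rMETRNL against young PBS, these medians were 0.56 and -0.56. With 1 library other than old PBS 3 left out, edgeR called 0 further neuron genes in both comparisons. With old PBS 3 left out, edgeR called 34 of the further neuron genes higher than in young PBS and 45 lower in old rMETRNL than in old PBS. Over all genes, it then called 289 of 15884 higher and 956 of 15981 lower. In old rMETRNL against young PBS the median of the same 48 genes was -0.02, and neither tool called any of them.

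The vesicle release list had 9 of 18 genes with all old PBS libraries above the others. Among them were Cplx1, encoding complexin 1, with 81, 25 and 98 counts in old PBS 2, 3 and 4 against 3 counts over the 6 others, and Syt1, encoding the calcium sensor synaptotagmin 1, with 131, 37 and 68 against 3. For Cplx1 the log2 fold change over young PBS was 7.34 ± 1.07 (SE), which missed the threshold in edgeR (adjusted p = 0.0659) and passed in DESeq2 (adjusted p = 4.85e-06). The axon transport and cytoskeleton list had 6 of 18 genes above. Its neurofilament gene Nefl had 47, 20 and 92 counts in old PBS, with 0 in every other library. Stmn3, a stathmin that acts on microtubules, had 67, 32 and 86 counts against 42 over the 6 others.

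The dense core granule list had 5 of 12 counted genes above. Its lowest p-values in edgeR were those of the convertase gene Pcsk2 (32, 19 and 26 counts in old PBS) and of Chgb, encoding the granule protein chromogranin B (36, 43 and 61 counts). The GABA neuron list had 6 of 9 counted genes above. The glutamate synapse list had 9 of 14 genes above, with the AMPA receptor gene Gria1 at 66, 19 and 58 counts and the NMDA receptor gene Grin1 at 28, 13 and 34. The neuron identity list had 9 of 16 above, with Sncb, encoding beta-synuclein, at 36, 34 and 43 counts and Celf4, an RNA-binding protein, at 106, 55 and 69. Of the 33 neuron genes that were above in old PBS and had a mean under 1 CPM over the 6 other libraries, 30 were lowest in old PBS 3, and 19 were highest in old PBS 4 and 13 in old PBS 2.

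Of 23 further astrocyte genes, all of them counted, 8 had all old PBS libraries above the others and 0 below. Over all genes with at least 20 counts, 3.72% had them above. With at least 20 counts required over the 6 other libraries, 3 of 18 (16.7%) had them above, against 2.5% over all such genes. Mlc1, a membrane protein of astrocyte end feet, had 25, 33 and 50 counts in old PBS, with 0 in every other library. Cspg5, encoding neuroglycan C, had 29, 15 and 39 counts in old PBS against 15 over the 6 others. EdgeR called 0 of 21 tested genes in old PBS against young PBS, with 8 at an unadjusted p under 0.05. Their median log2 fold change was 0.38, beside 0.01 for all genes tested. Over the 17 genes that also passed the filter without old PBS it was 0.34. DESeq2 called 7 of 23 higher, where it called 1.27% of all genes higher. In old rMETRNL against old PBS it called 5 of 23 lower, where it called 1.56% of all genes lower. Genes counted almost only in old PBS are among those called higher, such as Gjb6, with 13, 5 and 12 counts there and 2 over the 6 others. With 1 library other than old PBS 3 left out, edgeR called 0 of these astrocyte genes in both comparisons. With old PBS 3 left out, edgeR called 7 of these astrocyte genes higher in old PBS than in young PBS and 9 lower in old rMETRNL. Over all genes, this setting called 289 of 15884 higher and 956 of 15981 lower. Aqp4, the water channel of astrocyte end feet that fast muscle fibres also express, was picked with its values in view: its mean was 38.1 ± 24.9 CPM in old PBS (SD, n = 3) and 49.2 CPM over the 6 others.

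**Figure D3:**
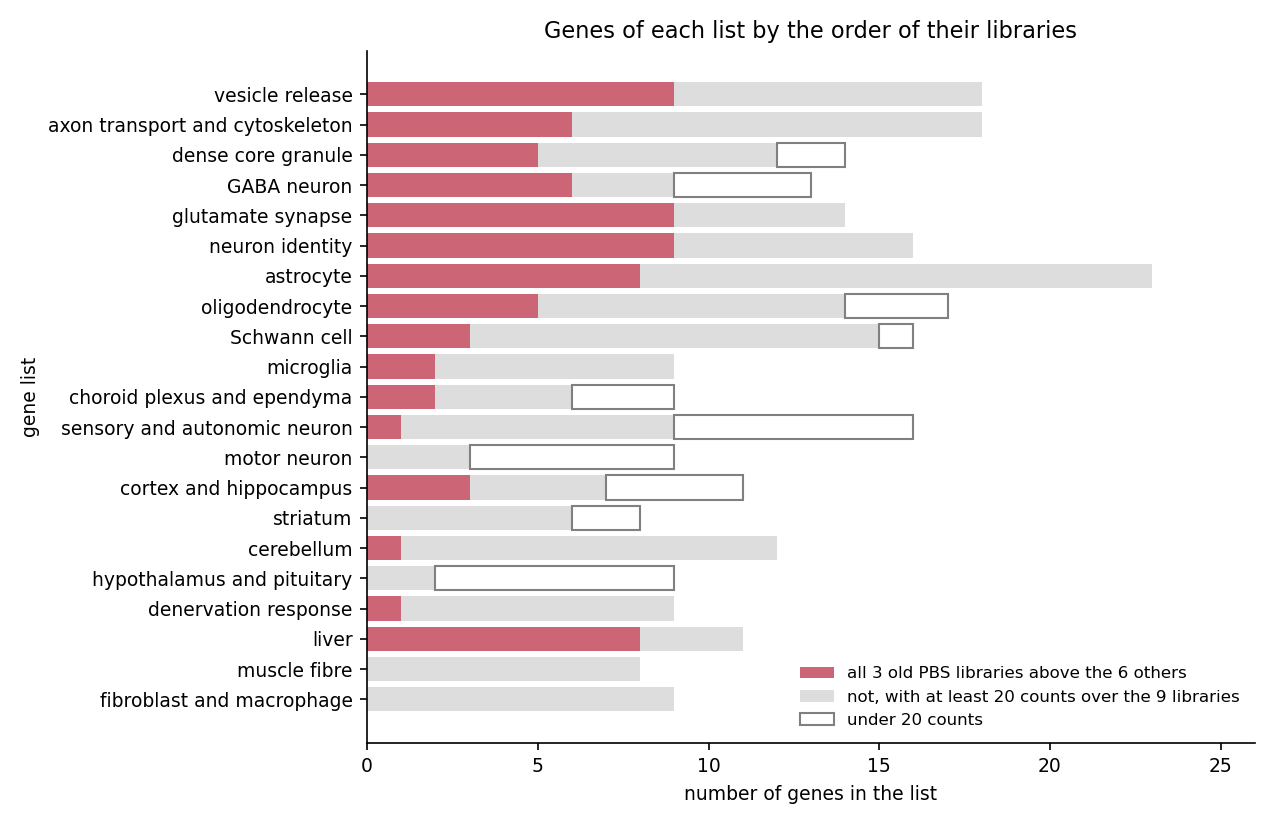
Number of genes in each list (horizontal axis) whose 3 old PBS libraries all lie above the 6 others (red), that do not show this order (grey) or that have under 20 counts over the 9 libraries (open). All 6 neuron lists have 5 to 9 genes in red and the liver list 8, against 0 for the motor neuron, striatum, hypothalamus and pituitary, muscle fibre and fibroblast and macrophage lists.

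Of 14 counted genes of oligodendrocytes, 5 had all old PBS libraries above. For this list and those below, the share over all genes with at least 20 counts was 3.72%. The 17 genes of the oligodendrocyte list summed to between 84.1 and 272 CPM in old PBS. They summed to between 42.7 and 50.6 CPM in young PBS and 45.2 and 54.3 CPM in old rMETRNL. Mobp, a myelin protein gene of oligodendrocytes, had 470, 262 and 665 counts in old PBS 2, 3 and 4 and none elsewhere, and was 1 of the genes edgeR called (adjusted p = 0.0422). This call was lost without young PBS 1, 2 or 3 or old PBS 2 (adjusted p = 0.151, 0.121, 0.0670 and 0.349). Per count of Snap25, Mobp stood at 2.13 (1.81 to 2.51), 2.10 (1.69 to 2.61) and 1.64 (1.45 to 1.86) in old PBS 2, 3 and 4. Not all oligodendrocyte genes did so: Ermn had 37, 1 and 19 counts and Mog 28, 0 and 13, both picked with their values in view. Mbp, a myelin gene of both oligodendrocytes and Schwann cells, had 1365, 673 and 2032 counts in old PBS and 125 to 218 elsewhere. The part of these cells, and of those of the other lists, in the difference of the 10 genes was not tested.

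Schwann cells make the myelin of nerves in muscle. Of 15 counted Schwann cell genes, 3 had all old PBS libraries above and 1 below, DESeq2 called none, and the list summed to 121 to 150 CPM in young PBS, 106 to 168 in old PBS and 136 to 158 in old rMETRNL. Sox10 and L1cam, the genes of this list with the lowest p-values, had adjusted p-values of 0.494 and 0.670 (edgeR).

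The neurons whose axons reach muscle were looked for by their own genes. Of the motor neuron list, 3 of 9 genes reached 20 counts, and for 0 of these were all old PBS libraries above. The acetylcholine-synthesis gene Chat had 3, 0 and 1 counts in old PBS, and Slc18a3 and Mnx1 had 0 in every library. Chodl and Ret, the genes of lowest p-value there, were counted in every library, at 157 to 357 and 89 to 270, and had log2 fold changes of -0.21 and 0.05 in old PBS against young PBS. Of the sensory and autonomic list, 9 of 16 genes were counted and 1 was above. Its summed level was 9.26 to 10.6 CPM in young PBS, 15.7 to 18.05 in old PBS and 8.24 to 10.8 in old rMETRNL, so that old PBS lay above both other groups. Most of it came from Pou4f1 (95, 141 and 139 counts in old PBS 2, 3 and 4, against 50 to 90 elsewhere) and Avil (49, 108 and 93, against 15 to 73), with edgeR adjusted p-values of 0.661 and 0.432. Prdm12 had 0 counts in every library, and Calca and Calcb 0 in every old PBS library. Prph, a filament gene of peripheral neurons, had 1, 9 and 10 counts in old PBS and 2 to 20 in the other libraries. Chat, Slc18a3, Mnx1, Prdm12, Calca, Calcb and Prph were picked with their values in view, and they do not stand for the whole of their lists.

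Old PBS 4 held most of the counts on several genes of brain regions. All 12 genes of a cerebellum list were highest in old PBS 4 among the 9 libraries. Gabra6 and Pcp2, markers of cerebellar granule cells and Purkinje cells, each had 0, 0 and 34 counts in old PBS 2, 3 and 4, and Neurod1 had 1, 2 and 35. Cbln3 had 9, 6 and 108 counts, against 2 to 13 in the other libraries. The list summed to 10.5 to 65.4 CPM in old PBS, 8.91 to 18.03 in young PBS and 10.2 to 15.0 in old rMETRNL, and only 1 gene had all 3 old PBS libraries above. Neurod2 of the cortex and hippocampus list showed the same pattern, with 1, 2 and 24 counts, and Ppp1r1b of the striatum list had 2, 14 and 33. Their lists did not follow it as a whole. Of 7 counted cortex and hippocampus genes, 2 were highest in old PBS 4, 2 in old PBS 3 and 3 outside old PBS. Of 6 counted striatum genes, these numbers were 3, 2 and 1. Slc17a6, the glutamate transporter gene of thalamic and brainstem neurons, had 39, 0 and 10 counts. Gabra6, Pcp2, Neurod1, Cbln3, Neurod2, Ppp1r1b and Slc17a6 were picked with their values in view. By the rule for naming, Car8 and Zic1 had adjusted p-values of 0.980 and 0.994 (edgeR) in old PBS against young PBS.

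Of the cortex and hippocampus list, 3 of 7 counted genes had all old PBS libraries above, and DESeq2 called Nrgn, encoding neurogranin, higher (59, 157 and 90 counts in old PBS 2, 3 and 4; adjusted p = 0.0149). Slc17a7 of this list had 35, 54 and 52 counts. The list's sum did not separate the groups, at 207 to 319 CPM in old PBS and 237 to 320 in young PBS, since Camk2a, singled out here for its level, had 3929 to 6202 counts in the 6 other libraries. Striatum had 0 of 6 counted genes above, with Penk and Adora2a at adjusted p-values of 0.835 and 0.994 (edgeR), and hypothalamus and pituitary 0 of 2, with Agrp at 26, 51 and 6 counts. Of the choroid plexus and ependyma list, 2 of 6 were above. Ttr, the transthyretin gene of choroid plexus and liver, had 80, 62 and 57 counts in old PBS, with 0 elsewhere, and was called by edgeR (adjusted p = 0.0438), a call that held without old PBS 3 (adjusted p = 0.00946) and was lost without any other of the 6 libraries compared (0.0600 to 0.320). Microglia genes had 2 of 9 above and 2 below, with none called by either tool; Sall1 and Siglech had adjusted p-values of 0.695 (edgeR).

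Genes best known from liver were counted in the same 3 libraries. Of the list, 2 genes had a mean of at least 1 CPM outside old PBS, among them Hp, with 228 to 1826 counts there. Of 11 liver genes, 8 had all old PBS libraries above (3.72% over all genes with at least 20 counts), and 9 were highest in old PBS 2. DESeq2 called 7 of the 11 higher than in young PBS, where it called 1.27% of all genes higher. Genes with 0 counts outside old PBS, such as Apoa1 and Fgb, entered through old PBS alone, so nothing is read from their order. Apoa1 had 46, 53 and 26 counts in old PBS 2, 3 and 4, and Fgb, a fibrinogen chain, 34, 30 and 20, with 0 elsewhere. Per count of Snap25, Alb stood at 4.33 (3.73 to 5.03), 4.06 (3.34 to 4.98) and 0.0616 (0.0394 to 0.0922) in old PBS 2, 3 and 4. The ratio to Snap25 was compared only for genes with few counts outside old PBS relative to old PBS, which left out Kif5a and Mbp. Among those counted in all 3 libraries, highest over lowest was largest for Alb, at 70.3-fold, and smallest for Mobp, at 1.30-fold. Among those of the 10 genes that were compared, this spread ran from 1.49-fold for Gfap to 5.55-fold for Slc1a2, with Gad1 at 5.05-fold. The liver genes compared, other than Alb, ran from 4.87-fold for Fgb and 6.62-fold for Apoa1 to 24.6-fold for Ahsg. Apoc3 had 0 counts in old PBS 4.

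**Figure D4:**
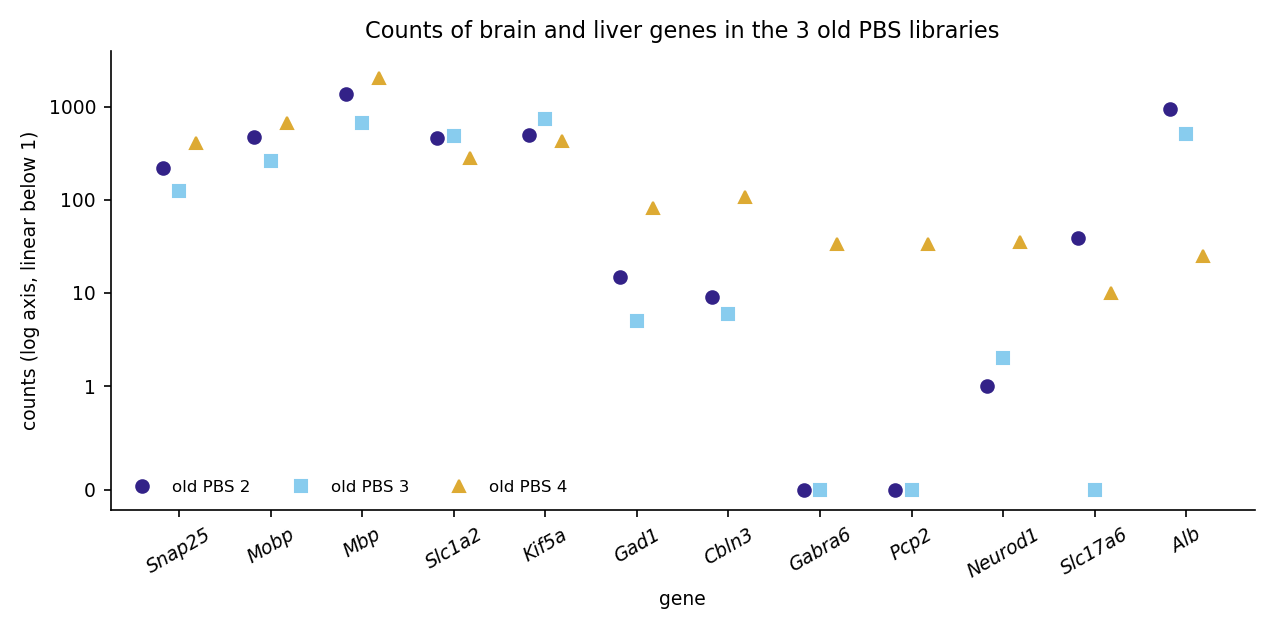
Counts (vertical axis, logarithmic above 1 and linear below) of Snap25, Kif5a, Slc1a2 and Gad1 with oligodendrocyte, cerebellum and liver genes in old PBS 2, 3 and 4. Gabra6, Pcp2 and Neurod1 are at 34, 34 and 35 counts in old PBS 4 and at 0 to 2 in the others, while Alb is at 956, 508 and 25.

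Of 9 genes that muscle raises when it loses its nerve, 1, the stress gene Gadd45a, had all old PBS libraries above (488, 1103 and 815 counts, against 324 to 492 elsewhere). DESeq2 called it higher (adjusted p = 0.0103) and edgeR did not (adjusted p = 0.176). Chrna1, a subunit of the acetylcholine receptor at the endplate, had 1594, 3611 and 861 counts in old PBS against 781 to 1527 elsewhere, and old PBS 3 stood apart. The muscle fibre list had 0 of 8 genes above or below, with Myh1 and Des at log2 fold changes of -0.31 and 0.15 in old PBS against young PBS. The fibroblast and macrophage list had 0 of 9 above and 4 below; it summed to 4635 to 8532 CPM in old PBS, 10438 to 14078 in young PBS and 9688 to 15051 in old rMETRNL. Cd68 and Col3a1 of that list had log2 fold changes of -0.60 and -1.01 (adjusted p = 0.695 and 0.715, edgeR). With DESeq2, Col3a1 was called in both comparisons, with old PBS below young PBS (adjusted p = 0.0430) and below old rMETRNL (adjusted p = 0.0198).

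Among 15296 genes with at least 100 counts, the profiles over the 9 libraries nearest to the neuron genes' sum were those of Dlgap1, Gpm6a, Gabbr2, Anks1b and Sptbn4. They overlapped it by 95.5%, 92.5%, 91.9%, 91.1% and 91.0%, where 100% is an identical spread of CPM over libraries. Dlgap1, a scaffold protein of the postsynaptic density, had 44, 34 and 52 counts in old PBS and 1 to 6 elsewhere. Nearest to the astrocyte genes' sum were Hpcal4 (93.3%), Nrsn1 (92.4%), Sptbn4 (91.8%), Adgrb1 (90.4%) and Dlgap1 (90.4%). Of the 10 genes, Snhg11 overlapped the neuron sum most, at 94.0%, and Gad1 least, at 56.5%. The points are 9 libraries that share their depth across genes, and the overlap is a description.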

How the data were processed

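The authors deposited raw counts of reads per Ensembl gene, not normalized, with replicates apart; the labels name STAR, featureCounts and mm9, and versions and strand setting are not given in the sources used here. Of 54532 genes, 54409 were matched to a symbol in GENCODE M21 (GRCm38). Groups come from the labels' age and treatment. Groups were compared in pairs with edgeR 4.0.16 in R 4.3.3 (filterByExpr, TMM, glmQLFTest, Benjamini-Hochberg, threshold 0.05), with DESeq2 1.42.0 as an alternative; standard errors come from the fold change and F. CPM uses TMM factors over the 9 libraries, and RPKM also exon length. Folds against a group at 0 use a floor of 3 counts per library. The test was checked on simulated data with the same spread between replicates set for every gene. That check does not cover how far these replicates differed. The labels do not say that replicates are separate animals, so p-values measure the spread between libraries.

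The members and lists were chosen with earlier results of these data known. Genes named were the members; for each list up to 3 called genes with the highest old PBS mean, or the 2 of lowest p; the 5 nearest profiles; and Mobp, Mbp and Alb. Some genes that this rule names are not reported here. Alternatives tried: normalization by size factors, all genes unfiltered, a minimum of 10 counts per library, the DESeq2 test, a joint fit of the 9 libraries, a replicate block and each library left out. Replicates of a group differed by more than sampling noise (chi-square per degree of freedom 11.9 to 188).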

Additional observations from a re-analysis of the deposited data

How the results depend on the processing

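Calls depended on the filter, the test and old PBS 3. For old PBS against young PBS, old rMETRNL against old PBS and old rMETRNL against young PBS, no filter on low counts gave 354, 740 and 132 calls, and at least 10 counts in every library gave 3, 1 and 0. DESeq2's Wald test gave 265, 354 and 0, and 1 fit of all 9 libraries 63, 71 and 0. With 1 library left out the counts ran from 2 to 401, 3 to 1560 and 0 to 1, the highest of the first 2 without old PBS 3. With 2 libraries left in a group, the spread is shared with the other group. Further neuron genes called in old PBS against young PBS, 0 by the reported test, numbered 33 without a filter, 30 by DESeq2, 7 in the fit of 9 libraries and 0 to 34 with a library left out; in old rMETRNL against old PBS they numbered 44, 33, 9 and 0 to 45. Further astrocyte genes numbered 7, 7, 3 and 0 to 7, and 8, 5, 1 and 0 to 9. All calls of these further genes had old PBS higher. With the replicate number as a block, 11, 65 and 0 genes were called in the 3 comparisons, and 0 and 8 further neuron genes and 0 and 3 further astrocyte genes in the first 2; the numbers share no animal or date in the labels, and same-numbered libraries correlated between -0.430 and 0.516, so they were not taken as pairs. The causes were not tested.

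The astrocyte share of the 10 genes' counts in old PBS was 36.5% per kilobase of exon, 26.4% without Kif5a and Slc1a2, and 31.0% to 33.6% without 1 old PBS library. Alternatives chosen after seeing the data left the genes with all old PBS libraries above the others at 40 to 63 further neuron genes, 7 to 11 further astrocyte genes and 10 of 10 genes, except that requiring 20 counts over the 6 other libraries gave 22 and 3. Snhg11 in old rMETRNL against young PBS turned to -0.54 without old rMETRNL 1 (range with 1 library left out, -0.54 to 0.49; reported value 0.15). Depth limits Gad1, Gria2, Pcsk1n and Gfap, which had at most 9 counts in any library outside old PBS.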
